A study of Mus musculus with 41 samples.

Results

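The genes described here encode the machinery by which MHC class II molecules take up and display peptides to CD4+ T cells, followed in mouse liver from healthy tissue through fatty liver and steatohepatitis to tumours. They were taken by symbol from the expression table: Cd74, H2-Aa, H2-Ab1, H2-Eb1, H2-DMa, H2-DMb1, Ciita and Ctss. All 8 are among the 24511 genes of the table, and all 8 passed the filter on low values that left 12337 genes. RNA-seq libraries of polyA RNA came from liver or tumour tissue of male C57BL/6 mice. The 35 libraries used fall into 11 groups. On a high-fat diet (HFD) these are fatty livers called healthy of genotypes B6 and IgAkCLM (HFD control, n = 3 each), livers with steatohepatitis of MupHe and IgAkMup (NASH, n = 3 each), and hepatocellular carcinoma (HCC) of MupHe (n = 4), IgAkMup (n = 4) and CD8kMup (n = 3). The remaining 4 groups are livers called healthy and marked NC, of B6, MupHe, IgAkMup and CD8kMup (n = 3 each). The labels explain neither NC nor the genotype names, and give no age, no promoter behind the Mup element and nothing on pooling. Mup is part of the name of each genotype with NASH or HCC and of neither HFD control genotype, so on HFD the element and the disease stage cannot be told apart. The groups CD8kMup NASH and CD8kCLM HFD control are not analysed here.

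MHC class II molecules are pairs of an alpha and a beta chain that assemble in the endoplasmic reticulum around the invariant chain, which is encoded by Cd74 and steers them to endosomes. There, cathepsin S (Ctss) trims the invariant chain to a short fragment called CLIP, and the chaperone H2-DM, made of the H2-DMa and H2-DMb1 products, exchanges CLIP for antigen peptides. H2-Aa and H2-Ab1 encode the chains of the I-A molecule and H2-Eb1 the beta chain of I-E. Mice of the C57BL/6 strain carry a defect in the I-E alpha gene and are known to display no I-E. Transcription of the chains, Cd74 and H2-DM depends on CIITA, a coactivator that binds no DNA itself but docks on factors assembled at the X and Y boxes of these promoters. In liver, dendritic cells, B cells and macrophages, including the resident Kupffer cells, are among the usual class II expressing cells. Interferon gamma can induce CIITA in other cells.

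The promoter stretches below show, in 3 of the genes, matches to some of the DNA elements through which CIITA is known to act. They are RefSeq sequences of build GRCm38.p6, and each runs from 250 bases before to 50 bases after an annotated gene start, so it includes the first transcribed bases. Of the 8 genes, 5 had at least 1 window in the RefSeq table used, with 6 windows in all, and Cd74, H2-Ab1 and Ciita had none. H2-Aa, H2-Eb1 and H2-DMb1 are printed because they stand for the alpha chain, the beta chain and the chaperone and, in contrast to the windows of Ctss and H2-DMa, held motif matches near the gene start. All 3 lie in the MHC on chromosome 17, at chr17:34287774-34288073 (minus strand), chr17:34305617-34305916 (plus strand) and chr17:34152941-34153240 (plus strand). Capitals mark GATTGG, the core of the Y box (also as CCAATC on the other strand), the X box, searched by a pattern of its conserved letters, and TGACGTCA, the CREB element that forms the X2 box in some class II genes. Both strands were searched, no match overlapped another motif, and the patterns were written with these sequences in view.
H2-Aa: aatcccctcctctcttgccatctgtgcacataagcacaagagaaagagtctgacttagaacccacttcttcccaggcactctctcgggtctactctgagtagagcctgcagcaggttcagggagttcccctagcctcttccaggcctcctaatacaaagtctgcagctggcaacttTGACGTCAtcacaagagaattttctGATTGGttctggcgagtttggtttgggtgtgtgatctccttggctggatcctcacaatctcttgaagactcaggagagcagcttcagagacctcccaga
H2-Eb1: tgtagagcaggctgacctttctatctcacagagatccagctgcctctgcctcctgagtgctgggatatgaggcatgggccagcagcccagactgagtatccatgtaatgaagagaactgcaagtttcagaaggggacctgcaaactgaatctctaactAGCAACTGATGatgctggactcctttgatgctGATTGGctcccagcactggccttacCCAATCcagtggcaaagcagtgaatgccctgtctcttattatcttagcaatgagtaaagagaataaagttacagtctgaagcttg
H2-DMb1: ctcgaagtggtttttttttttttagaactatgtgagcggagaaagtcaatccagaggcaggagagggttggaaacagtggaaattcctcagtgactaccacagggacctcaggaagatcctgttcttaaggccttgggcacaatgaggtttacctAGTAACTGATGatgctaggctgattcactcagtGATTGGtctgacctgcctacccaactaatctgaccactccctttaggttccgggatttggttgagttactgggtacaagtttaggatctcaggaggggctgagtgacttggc

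The Y box core began 49 bases before the gene start in H2-Aa, 60 in H2-Eb1 and 62 in H2-DMb1. An X box match began 92 bases before the start in H2-Eb1 and 95 in H2-DMb1, which puts it 32 and 33 bases upstream of the Y box core. H2-Aa held no match to the X box pattern but held TGACGTCA at 74 bases before the start, upstream of its Y box core. The window of Ctss and 1 of the 2 windows of H2-DMa held none of these motifs. The other H2-DMa window held only a Y box core, 199 bases before the start site it was set on. Both H2-DMa windows, from chr17:34122582 and chr17:34125268, lie inside the annotated gene, which spans chr17:34119693-34139101. They do not cover the start of that span, and other possible starts of H2-DMa were not searched. Of all 32851 windows of this length, 16.1% held the Y box core on either strand, 1.6% the X box pattern, 0.268% both, and 1.79% the CREB element. A match describes letters in a window and does not show that a factor is bound there.

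Values are rlog2 expression, a log2 scale on which a difference of 1 is a 2-fold difference and on which the values of weakly expressed genes are pulled toward their mean. Groups are compared by the difference of their mean rlog2 values ± standard error (SE), with limma p-values adjusted by the Benjamini-Hochberg method over all 12337 genes and a threshold of 0.05. The depth of the libraries is unknown. On the second principal component of all kept genes, 3 tumours lay away from the rest, MupHe HCC 3 at -29.1, IgAkMup HCC 9 at -35.6 and IgAkMup HCC 5 at -28.4, so the main counts that rest on tumours are also given without them. Column tags that the labels do not explain follow the groups: SS N for B6 HFD control and IgAkMup NASH, Tri N for IgAkCLM HFD control and MupHe NASH, SS H for HCC and Tri NC for NC. Whether the tags mark different handling is not stated, and tag and group cannot be told apart outside comparisons within HCC, within NC or within 1 tag. Replicates are not stated to be separate animals, so p-values measure only the spread between these samples.

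The class II genes were higher in tumours than in steatohepatitis livers. Over both genotypes and in MupHe the difference was largest for Cd74, the invariant chain, while in IgAkMup H2-Eb1 (1.93) and Cd74 (1.92) were about level. In MupHe, Cd74 stood at 9.73, 9.79 and 9.74 in the NASH livers and at 12.93, 12.97, 12.03 and 12.34 in the tumours. In IgAkMup it stood at 10.73, 10.41 and 10.42 in NASH and at 12.43, 11.77, 12.71 and 12.87 in tumours. No tumour of either genotype came near a NASH liver, and the 3 MupHe NASH livers lay close together. Over both genotypes Cd74 was higher by 2.37 ± 0.20 (adjusted p = 3.69e-10, limma, 8 tumours against 6 livers), a 5.17-fold difference with an SE range of 4.49 to 5.95. In these bulk samples, more cells that express a gene and more RNA of it per cell cannot be told apart.

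All 8 genes rose from NASH to HCC, beside 25.5% of all genes that were called higher (22.9% were called lower). Their median difference was 1.72, against 0.01 over all genes. The chains of the class II molecules followed Cd74: H2-Eb1 rose by 2.19 ± 0.22, H2-Ab1 by 2.13 ± 0.21 and H2-Aa by 2.00 ± 0.22. The H2-DM chaperone genes rose less, H2-DMb1 by 1.45 ± 0.20 and H2-DMa by 1.33 ± 0.19. Ciita rose by 1.27 ± 0.20 and Ctss by 0.99 ± 0.18, and the largest adjusted p of the 8 was 3.85e-05 (limma), for Ctss. Without the 3 tumours that lay apart, all 8 were still called, beside 25.2% of all genes called higher, and the median was 1.47.

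H2-Ab1, the I-A beta chain, stood at 8.35, 8.32 and 8.29 in MupHe NASH and at 10.55, 11.64, 10.27 and 10.55 in MupHe HCC. In IgAkMup it stood at 9.35, 8.98 and 8.96 in NASH and at 10.98, 10.15, 11.11 and 11.45 in HCC. The lowest tumour of each genotype was above its highest NASH liver. Ciita, the coactivator, stood at 4.34, 4.86 and 4.43 in MupHe NASH and at 5.65, 6.36, 4.86 and 5.69 in MupHe HCC, so MupHe HCC 4 was about level with the highest NASH liver. In IgAkMup, Ciita stood at 4.65, 4.37 and 4.67 in NASH and at 5.82, 5.26, 6.52 and 6.46 in HCC, with no overlap.

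Within MupHe all 8 genes were called higher in HCC (16% of all genes were), with differences from 0.97 for Ctss to 2.82 for Cd74. Within IgAkMup all 8 were called too (23.2% of all genes), from 1.01 for Ctss to 1.93 for H2-Eb1. The rise of Cd74 was 0.89 ± 0.41 smaller in IgAkMup than in MupHe, and this difference of differences did not pass (adjusted p = 0.157, limma). None of the 8 genes passed that test, beside 10% of all genes, and 1 of the 8, Cd74, had an unadjusted p under 0.05, as did 25.9% of all genes. The IgAkMup libraries share SS in their tags, and the MupHe libraries do not. With IgAkMup NASH in place of MupHe NASH, which makes the first part of the tag the same and changes the genotype, all 8 were called higher in MupHe HCC (15.1% of all genes), with Cd74 at 2.04.

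**Figure D1:**
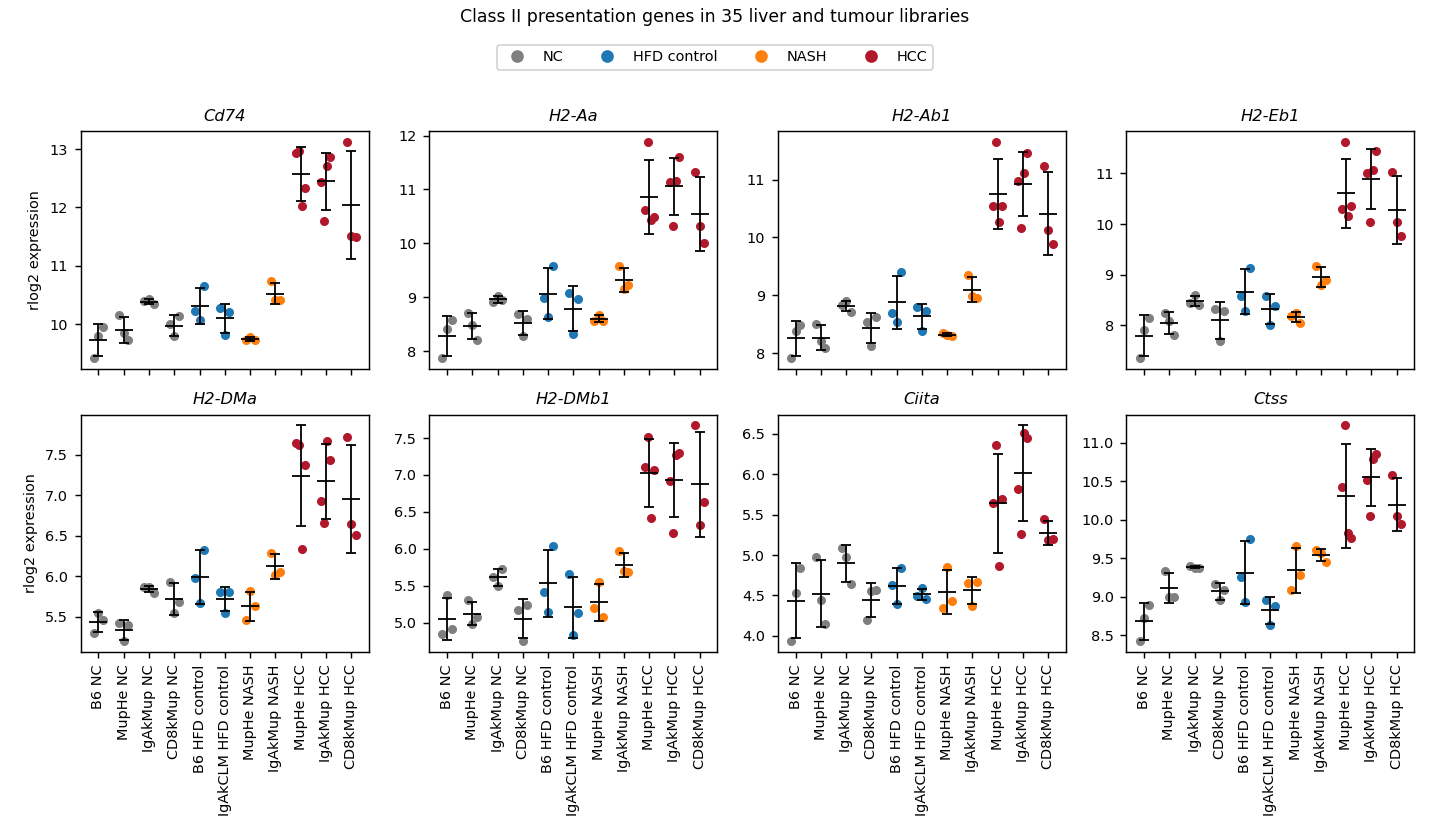
Expression of the 8 class II presentation genes (rlog2, vertical axes with separate scales) in 11 groups, with 1 point per library, a dash at the group mean and bars of 1 SD. In the panel of Cd74 the 11 tumours lie between 11.49 and 13.12 and the other 24 libraries between 9.42 and 10.73, and in the panel of Ciita 1 tumour lies among the other libraries.

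In the CD8kMup genotype, tumours can be set only against NC livers, since its NASH libraries are not analysed here. Cd74 stood at 9.99, 9.79 and 10.14 in CD8kMup NC and at 13.12, 11.52 and 11.49 in CD8kMup HCC, where tumour 3 was far above the other tumours. All 8 genes were called higher in CD8kMup HCC, beside 16.8% of all genes. The differences ran from 0.83 ± 0.30 for Ciita (adjusted p = 0.031, limma) to 2.17 ± 0.34 for H2-Eb1 (adjusted p = 2.41e-05). The call of Ciita ended when CD8kMup HCC 3, 4 or 8 or CD8kMup NC 1 or 3 was left out (adjusted p = 0.0502 to 0.116, limma), and also with quantile normalization (0.71, adjusted p = 0.063). Over the 3 genotypes with both stages, HCC minus NC called all 8 higher, beside 31.7% of all genes, from 1.02 for Ciita to 2.38 for H2-Eb1. It still called 8 of 8 without the 3 tumours that lay apart (32.6% of all genes).

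Tumours of different genotypes were not called different for any of the 8 genes. IgAkMup minus MupHe gave 0 of 8 (10.1% of all genes were called in either direction), CD8kMup minus MupHe 0 of 8 (1.32%) and CD8kMup minus IgAkMup 0 of 8 (22.9%). By unadjusted p under 0.05, limma gave 0, 0 and 1 of 8, beside 26.2%, 16.2% and 36.9% of all genes. That 1 was Ciita, which stood at 5.44, 5.18 and 5.20 in CD8kMup HCC, the first within the range of IgAkMup HCC and the others below it, and differed by -0.74 ± 0.28 (adjusted p = 0.0539). Without the 3 tumours that lay apart, 0 of 8 were called in each of these comparisons, beside 1993, 530 and 2730 of the 12337 genes. The median of CD8kMup minus MupHe then went from -0.32 to -0.02, with H2-Aa (0.04), H2-Eb1 (0.01), H2-DMb1 (0.01) and Ctss (0.19) now above 0, and the median of CD8kMup minus IgAkMup went from -0.46 to -0.21. CD8kMup HCC 3 also moved these results. Without it, Cd74 was called lower in CD8kMup than in MupHe tumours (-1.06, adjusted p = 0.0285, limma) and Cd74, H2-Ab1 and H2-Eb1 lower than in IgAkMup tumours (-0.94, -0.92 and -0.98). Of all 12337 genes, 133 and 2133 were called in these fits. Without MupHe HCC 3, Ctss was called higher in IgAkMup than in MupHe tumours (0.55, adjusted p = 0.0445, limma), and without IgAkMup HCC 7, H2-Ab1, H2-Eb1 and Ciita were called lower in CD8kMup than in IgAkMup (-0.77, -0.89 and -0.99). The fits without these tumours called 2895 and 3259 of the 12337 genes.

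Set against all 24 non-tumour libraries, every one of the 11 tumours was above every other library for 7 of the 8 genes, a pattern that 2.62% of all genes showed. It was again 7 of 8 without the 3 tumours that lay apart, beside 3.23% of all genes. The distance between the lowest tumour and the highest other library was 0.76 for Cd74, 0.59 for H2-Eb1, 0.49 for H2-Ab1, 0.43 for H2-Aa and 0.18 for H2-DMb1. For H2-DMa it was 0.0051 and for Ctss 0.017, far smaller than the spread within groups. H2-DMa ran from 6.33 over a median of 7.37 to 7.72 in tumours and from 5.20 over 5.74 to 6.33 elsewhere. Ctss ran from 9.76 over 10.42 to 11.22 in tumours and from 8.42 over 9.13 to 9.74 elsewhere. Ciita was the exception, with 10 of 11 tumours above all other libraries and MupHe HCC 4 (4.86) below IgAkMup NC 1 (5.08). The 3 tumour groups had the 3 highest group means of each gene and overlapped one another, so their order among tumours does not go beyond the spread, and below them CD8kMup HCC did not overlap the next group.

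The tumours also differed among themselves, and the 8 genes mostly ranked them alike. Cd74 spanned 1.62 over the 11 tumours, H2-Aa 1.87, H2-Eb1 1.85 and H2-Ab1 1.75. MupHe HCC 3 was among the 3 highest tumours for 7 of the 8 genes, IgAkMup HCC 9 for 6 and CD8kMup HCC 3 for 5. CD8kMup HCC 4 and CD8kMup HCC 8 were each among the 3 lowest for 7 genes. High and low tumours were thus found within the same genotype. CD8kMup HCC 3 was the highest tumour for Cd74, H2-DMa and H2-DMb1 but only the seventh for Ciita, at 5.44, and MupHe HCC 7 was near the middle for 7 genes and the lowest for Ctss, at 9.76.

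**Figure D2:**
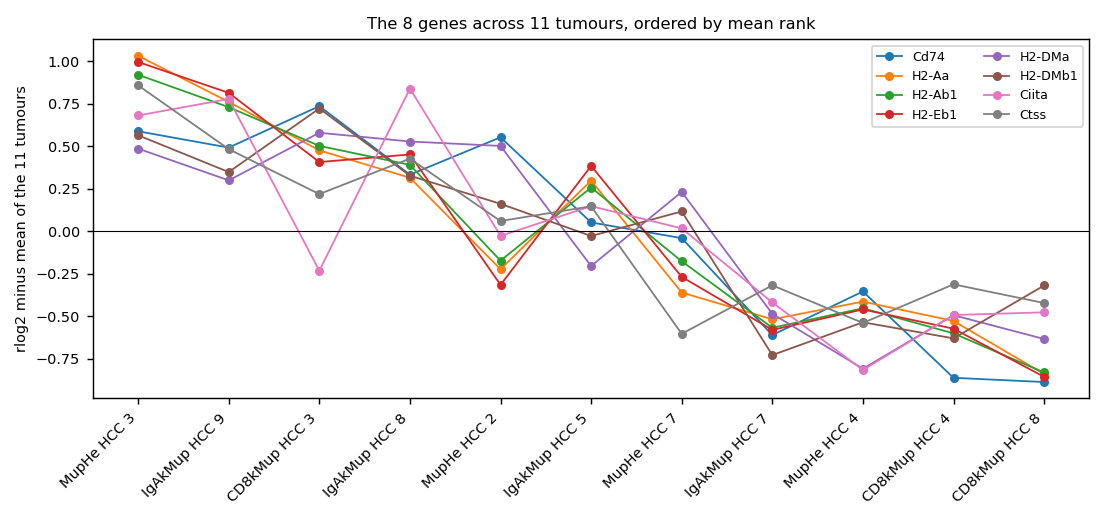
Each line is 1 gene across the 11 tumours, drawn as rlog2 minus the gene's mean over the tumours (vertical axis), with tumours ordered by their mean rank over the 8 genes; the order is a description and the lines only join points of a gene. MupHe HCC 3 is at the high end and CD8kMup HCC 4 and CD8kMup HCC 8 at the low end, while Ciita in CD8kMup HCC 3 departs from the other genes.

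The balance between the genes within a library shows which of them moved together. H2-Aa minus H2-Ab1, the log2 ratio of the I-A chains, ran from -0.08 to 0.36 in the 24 other libraries and from -0.06 to 0.23 in tumours, so these chains kept within the same range. Such a ratio also holds the lengths of the transcripts, and only its change between samples is compared here. H2-Ab1 minus H2-DMa had a median of 2.91 (2.50 to 3.09) in the other libraries and 3.50 (2.91 to 4.05) in tumours. H2-Ab1 minus Ciita had a median of 4.0 (3.46 to 4.70) and 4.94 (4.60 to 5.78), and H2-Ab1 minus Ctss ran from -1.35 to -0.15 elsewhere and from -0.05 to 0.79 in tumours, without overlap. H2-Ab1 thus stood higher against Ctss in every tumour than in any other library, while against H2-DMa and Ciita the ranges overlapped. rlog2 values are shrunk more for genes with low counts, so the smaller differences of Ciita and the H2-DM genes can be understated.

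Steatohepatitis and fatty livers did not differ detectably in these genes. In the B6 HFD control, Cd74 stood at 10.23, 10.06 and 10.66, and in the IgAkCLM HFD control at 10.28, 9.82 and 10.20. The MupHe NASH livers lay below all of these, and the IgAkMup NASH livers (10.41 to 10.73) reached past the highest B6 value. NASH minus HFD control called 0 of 8 genes, beside 1.32% of all genes, and none of the 8 had an unadjusted p under 0.05, beside 12.2% of all genes. Cd74 differed by -0.07 ± 0.22 and the largest difference was that of Ctss, 0.38 ± 0.19 (adjusted p = 0.421, limma). With libraries weighted by their variability Ctss was called (0.41, adjusted p = 0.0114, limma), as were 2386 of the 12337 genes.

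Within the Tri N libraries, MupHe NASH minus IgAkCLM HFD control called 0 of 8 (0.559% of all genes), with a median of -0.13 and Cd74 at -0.35 ± 0.31. Within the SS N libraries, IgAkMup NASH minus B6 HFD control called 0 of 8 (0.251% of all genes), with a median of 0.23 and Cd74 at 0.21 ± 0.31. None of the 8 genes had an unadjusted p under 0.05 in either, beside 10.2% and 7.55% of all genes. The difference between these contrasts called 0 of 8, beside 0.0567% of all genes.

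The livers of the IgAkMup genotype stood at the upper end of the non-tumour groups, though not alone and not for Ciita in NASH. By group means, B6 HFD control was above IgAkMup NC for H2-Aa, H2-Ab1, H2-Eb1 and H2-DMa. Ciita was lower in IgAkMup NASH (4.56) than in B6 HFD control (4.62), and IgAkMup minus MupHe in NASH gave 0.02 ± 0.30 for it. Cd74 was 10.40, 10.42 and 10.34 in IgAkMup NC, against 10.15, 9.84 and 9.72 in MupHe NC, and the lowest IgAkMup liver was above the highest MupHe liver. IgAkMup minus MupHe gave 0.48 ± 0.31 for Cd74 and a median of 0.49 over the 8 genes in NC, where 0 of 8 were called (0.0162% of all genes) and none had an unadjusted p under 0.05 (3.54% of all genes). In NASH it gave 0.77 ± 0.31 for Cd74 (adjusted p = 0.191, limma) and a median of 0.61, where again 0 of 8 were called (3.02% of all genes) and 4 had an unadjusted p under 0.05 (15.5% of all genes). Fitted on the groups of the comparison alone, limma called 2 of 8 in NC (1.62% of all genes) and 5 of 8 in NASH (8.49%), all higher in IgAkMup. The NASH groups also differ in tag, SS N against Tri N, and its part in the difference was not tested.

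In NC livers, MupHe minus B6 (0.0486% of all genes called) and CD8kMup minus MupHe (0.0162%) called 0 of 8 each, with 0 at an unadjusted p under 0.05 (5.25% and 2.97% of all genes). Cd74 in B6 NC stood at 9.42, 9.80 and 9.95, with B6 NC 1 the lowest library of all 35 for 6 of the 8 genes. In B6, HFD control minus NC gave positive differences for all 8 genes, with a median of 0.61 and H2-Eb1 the largest at 0.87 ± 0.34 (adjusted p = 0.0676, limma). None of the 8 was called, beside 20.6% of all genes, and 3 had an unadjusted p under 0.05, a share near the 33.5% of all genes. Without B6 HFD control 2, H2-Eb1 and Ctss were called (1.06 and 0.82), beside 2387 of the 12337 genes. With the IgAkCLM HFD control in place of the B6 one, which makes the first part of the tag the same and changes the genotype, 0 of 8 were called (2.31% of all genes) and the median was 0.33. The HFD controls themselves, B6 minus IgAkCLM, gave 0 of 8 (5.16% of all genes), a median of 0.28 and 0 at an unadjusted p under 0.05 (21.2% of all genes). NASH minus NC called 0 of 8 in MupHe (1.93% of all genes) and 0 of 8 in IgAkMup (12.9%), with medians of 0.12 and 0.22 and 0 at an unadjusted p under 0.05 in each (13.8% and 26.6% of all genes).

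**Figure D3:**
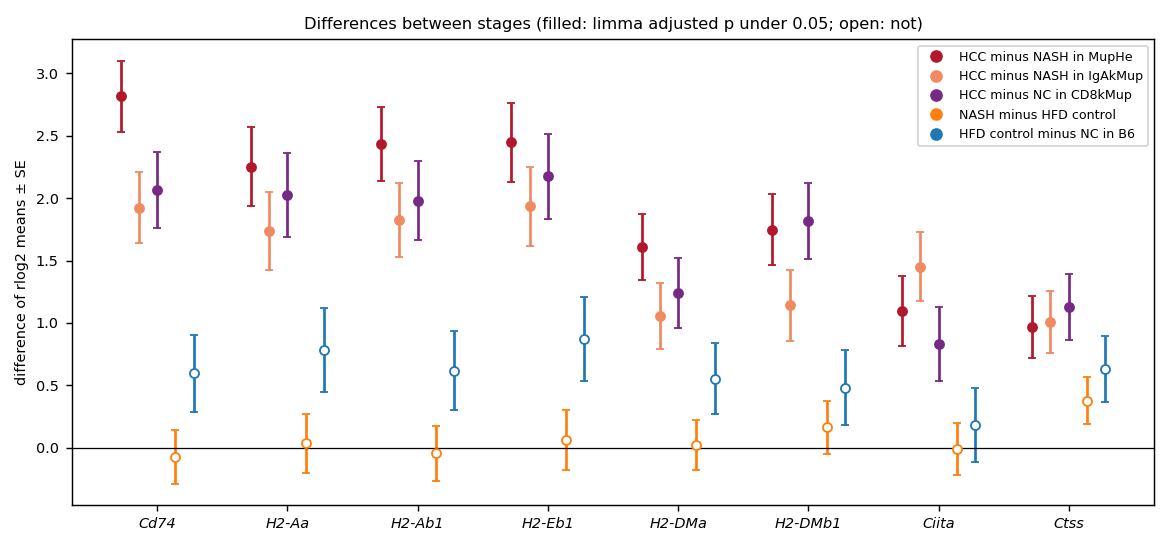
Difference of group means in rlog2 (vertical axis) for each gene, with bars of 1 SE, for tumours against NASH livers in MupHe and in IgAkMup, tumours against NC livers in CD8kMup, NASH against HFD control, and HFD control against NC in B6. Filled points passed an adjusted p of 0.05 and open points did not, and all tumour contrasts are filled while the liver contrasts are open.

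Tumours also held more RNA of leukocyte genes, and those levels stand beside the class II genes as follows. In this and the next lists of genes, the shares to read a count against are those of all genes from NASH to HCC, 25.5% called higher, 22.9% lower and 48.4% in either direction. All 5 general leukocyte genes tested (Ptprc, Laptm5, Coro1a, Cd52 and Cd53) rose from NASH to HCC, with a median of 0.83, and Ptprc, which encodes the leukocyte surface phosphatase CD45, rose by 0.83 ± 0.16; without the 3 tumours that lay apart 4 of 5 were called, Cd53 no longer. Their mean level ran from 6.59 to 7.17 in NASH, from 6.35 to 7.13 in HFD control, from 6.05 to 6.92 in NC and from 7.29 to 8.22 in HCC. Of 8 macrophage and monocyte genes, 6 rose, among them the chemokine receptors Cx3cr1 (2.00 ± 0.25) and Ccr2 (1.24 ± 0.22). The general macrophage genes Adgre1 (0.15 ± 0.19) and Csf1r (0.52 ± 0.24) were not called. All 7 Kupffer cell genes fell, with a median of -2.19, among them Timd4 (-2.19 ± 0.11) and Clec4f (-2.44 ± 0.44), so the class II genes were high in tumours where genes of the resident macrophages were low. Of the 7, 6 fell without the 3 tumours that lay apart, and the median was -1.43, with Cd5l no longer called. Kupffer cell genes ranged widely in tumours, with a mean level from 4.31 in IgAkMup HCC 9 to 7.19 in CD8kMup HCC 3, and both of these tumours were high in class II. The part of these cell types in the class II result was not tested.

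Of the genes that mark dendritic cells, 11 were in the table, 5 had a mean too low to be tested and 3 of the other 6 rose: Itgax, which encodes CD11c (1.69 ± 0.21), Fscn1 (1.14 ± 0.14) and Ccr7 (0.43 ± 0.09). Itgax is also expressed by macrophages. Flt3 (0.27 ± 0.12), Clec9a (-0.06 ± 0.14) and Zbtb46 (-0.04 ± 0.11), which mark dendritic cells more narrowly, were not called. Of 8 B cell genes, 6 were too low to be tested, among them Ms4a1, and neither Cd79a (-0.12 ± 0.10) nor Cd79b (0.20 ± 0.10) was called, though Cd79b was without the 3 tumours that lay apart (0.27, adjusted p = 0.0371, limma). Of the 4 T cell genes tested, Lck and Cd8a rose, by 0.82 ± 0.25 and 0.58 ± 0.16, and Cd3g (0.31 ± 0.17) and Cd4 (0.17 ± 0.18) were not called. Of the tested genes of tissue cells, 2 of 5 for bile duct cells rose, 1 of 5 for sinusoidal endothelium rose and 2 fell, and 3 of 6 for hepatocytes fell. With the 3 tumours that lay apart left out, 3 of 5 bile duct genes fell and 2 rose, and 2 of 5 endothelial genes rose, with Lyve1 added.

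Measured against the mean of the 5 leukocyte genes in the same library, Cd74 still rose from NASH to HCC, by 1.53 ± 0.16 (adjusted p = 1.45e-09, limma). H2-Eb1 rose by 1.35, H2-Ab1 by 1.29 and H2-Aa by 1.15 on this scale, and H2-DMb1, H2-DMa and Ciita by 0.60, 0.49 and 0.43. Ctss did not (0.14 ± 0.12, adjusted p = 0.244, limma). In all, 7 of the 8 genes were higher relative to leukocyte genes, beside 2.38% of all genes, and relative to 8 macrophage and monocyte genes the same 7 were, beside 2.46%. The marker genes mostly rose themselves, and 83.8% and 83.4% of all genes were called lower on these scales. The shares of genes called higher are thus low by the way such scales are made. Leukocyte genes also have a lower mean level than Cd74, so rlog2 can understate their rise more. Ciita, H2-DMa and H2-DMb1 have a lower mean level than the leukocyte genes, so for these the understatement can run the other way. Within MupHe 6 of 8 were called on the leukocyte scale (1.64% of all genes), without Ciita and Ctss, and within IgAkMup 5 of 8 (1.79%), without H2-DMa, H2-DMb1 and Ctss. Without the 3 tumours that lay apart these counts were 7, 6 and 4 of 8 (3.47%, 2.95% and 2.4% of all genes), and Ciita was no longer called in IgAkMup (0.49, adjusted p = 0.0696, limma). In CD8kMup HCC minus NC it was 5 of 8 (0.827%), and Ciita was at -0.18 ± 0.21 there, against 0.83 without the leukocyte genes. In HCC minus NC over the 3 genotypes with both stages the count was 6 of 8 (2.27% of all genes). Ciita (0.03, adjusted p = 0.832, limma) and Ctss (0.17, adjusted p = 0.103, limma) were not called there.

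**Figure D4:**
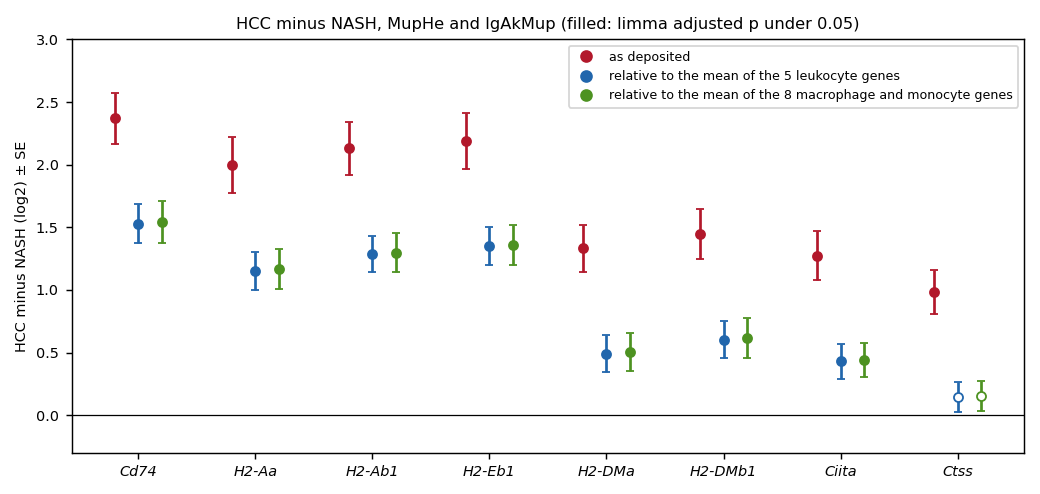
HCC minus NASH over MupHe and IgAkMup for each gene (log2, bars of 1 SE), on the values as deposited and relative to the mean of 5 leukocyte genes or of 8 macrophage and monocyte genes. The points of Cd74 and the class II chains stay above 1 on every scale, and that of Ctss falls from 0.99 to 0.14 and 0.15, both open because they did not pass an adjusted p of 0.05.

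**Figure D5:**
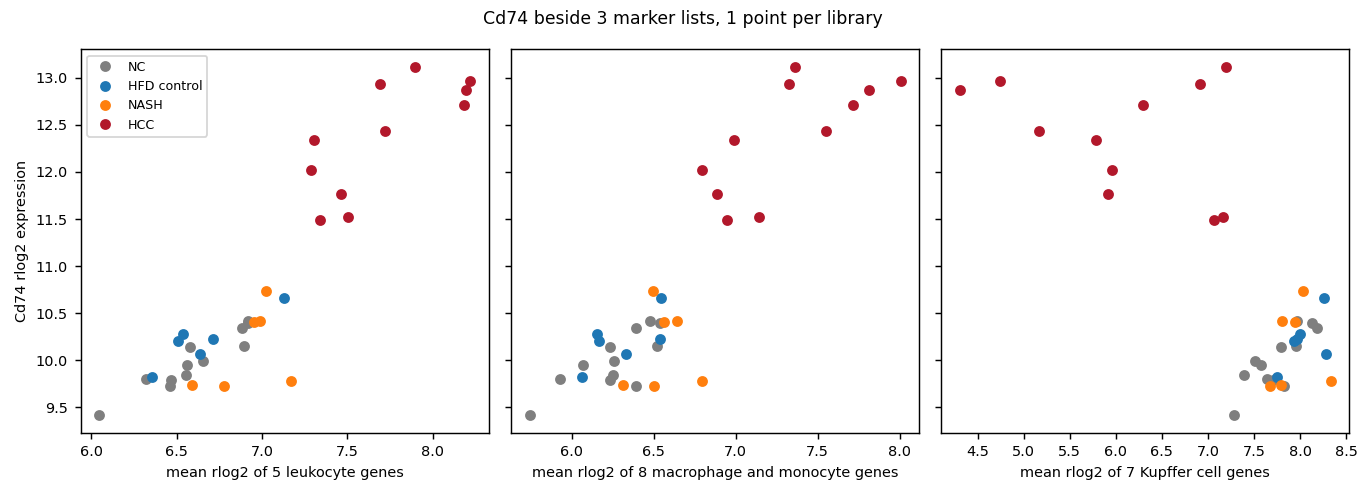
Cd74 (rlog2, vertical axis) against the mean rlog2 of 5 leukocyte, 8 macrophage and monocyte and 7 Kupffer cell genes, with 1 point per library coloured by stage. Tumours lie above the other libraries in Cd74 in each panel, at leukocyte means from 7.29 to 8.22 and Kupffer cell means from 4.31 to 7.19.

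Cd74 minus Ptprc shows the same in single libraries: it ran from 2.15 to 3.82 outside tumours and from 4.01 to 5.44 in tumours, without overlap. Ciita minus Ptprc overlapped, at -2.78 to -1.92 and -2.49 to -1.85. Genes were also ranked by how closely their centred values followed those of the class II genes over the 35 libraries, by the root mean square of the log2 difference. Nearest to the mean of Cd74, H2-Aa, H2-Ab1 and H2-Eb1 were Pdgfb (0.42), Cbr1 (0.43), Trim47 (0.44), Coro1a (0.44) and Itgax (0.44). Nearest to Ciita was Ptprc (0.24), followed by Selplg, Inpp5d, Fmnl1 and Nckap1l, which are genes of blood cells. Nearest to Ctss were Marcks (0.18), Ms4a6b, Laptm5, Lyz2 and Ms4a6c, several of them macrophage genes. These are descriptions over libraries that share stages, genotypes and normalization.

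Other genes of the pathway were taken from lists by role. Among genes of the compartment in which class II is loaded, 6 of 11 tested rose from NASH to HCC and 2 fell, beside 48.4% of all genes called in either direction. Without the 3 tumours that lay apart 8 rose and 2 fell, with the cathepsin genes Ctsb (0.57) and Ctsl (0.30) added. Lgmn, a lysosomal protease, rose by 0.46 ± 0.13 and Lamp1, a lysosomal membrane protein, by 0.31 ± 0.08. Lamp2 fell by 0.66 ± 0.16 and the cathepsin gene Ctsh by 0.47 ± 0.07, and Ifi30, which encodes the reductase GILT, rose by 0.42 ± 0.17 (adjusted p = 0.046, limma). Of other class II chains and chaperones 5 were in the table and only H2-Ob could be tested (0.21, adjusted p = 0.098). H2-Ea-ps, the I-E alpha pseudogene of this strain, was listed at 0 in every library used.

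Factors that act upstream of class II promoters changed in both directions. Of 14 tested genes for the promoter complex and interferon gamma signalling, 4 rose and 2 fell from NASH to HCC, with a median of 0.04, a share near the 48.4% of all genes called. The receptor genes Ifngr1 and Ifngr2 rose by 1.03 ± 0.14 and 0.71 ± 0.15, and Irf2 fell by 0.37 ± 0.08. The subunit genes of the Y box factor NF-Y went in different directions. Nfyb fell by 0.81 ± 0.09, Nfya rose by 0.45 ± 0.11 and Nfyc (-0.18 ± 0.10) was not called. The X box factor genes Rfx5 (-0.00 ± 0.11), Rfxap (-0.16 ± 0.10) and Rfxank (0.03 ± 0.13) were not called, nor was Irf1 (0.21 ± 0.10), which passed without the 3 tumours that lay apart (0.27, adjusted p = 0.0484, limma). Ifng itself was too low to be tested.

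Genes that work beside class II at the cell surface rose in part. Of 5 tested costimulation genes 3 rose from NASH to HCC, beside 25.5% of all genes, namely Icosl (0.92 ± 0.14), Cd83 (0.80 ± 0.17), whose product stabilizes class II at the surface, and Cd40 (0.44 ± 0.14), and Cd86 was not called (0.11 ± 0.12). CD74 is also a surface receptor for the cytokine MIF, with CD44 and CXCR4 as partners. Cxcr4 rose by 1.92 ± 0.20, Cd44 by 0.69 ± 0.17 and Mif by 0.43 ± 0.11, and Ddt, which encodes a relative of MIF, fell by 1.16 ± 0.22, so that all 4 tested genes of this list were called, beside 48.4% of all genes.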

How the data were processed

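The deposited table holds rlog2 values, on a log2 scale, for 24511 genes and 41 libraries, per the file headers. The submitters' processing notes name STAR for all samples, Cuffdiff for the 29 on HFD, HOMER and DESeq2 for the 12 marked NC, and genome mm10; versions, the program behind the rlog values and whether both sets of samples were normalized in 1 run are not stated. An rlog value is scaled for library size, and the fewer the counts, the more it is drawn to the mean of its gene. Per the labels, libraries were made with a stranded mRNA kit, and some livers had RNA taken with Trizol. Depth is unknown, so no counting interval is given. Each column was assigned by its name; 6 columns matched CD8kMup NASH and CD8kCLM HFD control alike and were not used. The number of a library is the one that ends its column name, and in CD8kMup NC and IgAkMup NC it can differ from the replicate number in the title, on which the replicate block rests. H2-DMb1 and H2-Eb1 have close paralogs, and how shared reads were counted is not stated.

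Genes with a mean of at least 3 were kept (12337). All 11 groups entered 1 limma fit (limma 3.58.1, R 4.3.3, eBayes with trend), with two-sided p-values adjusted by Benjamini-Hochberg at 0.05; the script was tested on simulated data. Alternatives were a filter at 5 or above 0, median centring, quantile normalization, no trend, array weights, fits on the groups of a comparison alone, a replicate block over NC libraries, each library left out, the 3 tumours left out, and, added after the data were seen, scales relative to marker genes (also without the 3 tumours), list counts without those tumours, exchanged groups and 3 comparisons. The named genes are the 8 members, up to 5 genes of each list by adjusted p in HCC minus NASH, and the 5 nearest genes by root mean square difference. Genes named as not called, and Ddt, Ctsh, Lamp1, Ifi30 and others beyond that rule, were chosen with their values in view. The members and lists were chosen with earlier results of these data known.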

Additional observations from a re-analysis of the deposited data

Results flagged for a closer look

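In MupHe HCC, H2-Aa stood at 11.88 and H2-Eb1 at 11.62 in MupHe HCC 3, each set apart from the other 3 tumours of the group (10.43 to 10.62 for H2-Aa and 10.16 to 10.35 for H2-Eb1) by 0.868 of the group's whole range, above Dixon's 95% limit for 4 samples. Of 16 sets of a gene in a group of 4 tumours examined, these 2 were set apart, and chance sets apart about 1 in 20. Both come from the same library.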

How the results depend on the processing

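A filter at a mean of 5 left Ciita untested. The 8 genes called higher in HCC than in NASH stayed at 8 whichever single library was left out, in both genotypes together, in MupHe and in IgAkMup, and without the 3 tumours that lay apart. Of all alternatives, the values of single genes gave 3059 results, of which 33 newly passed the threshold and 44 no longer passed with the same sign. The sign changed in 180: 176 had not been called as reported, and none of the 180 was called under the alternative. The other 4 are Ciita in HCC minus NC in CD8kMup, with and without the 3 tumours that lay apart, -0.18 relative to 5 leukocyte genes and -0.076 relative to 8 macrophage and monocyte genes. On either of these scales the count fell from 8 to 5 in IgAkMup HCC minus NASH and in CD8kMup HCC minus NC. Without the 3 tumours it was again 5, except 4 in IgAkMup on the leukocyte scale. In HCC minus NC over the 3 genotypes it fell from 8 to 6 on the leukocyte scale and to 7 on the macrophage and monocyte scale. Fitted on the groups of the comparison alone, the count of called genes went from 0 to 2 in IgAkMup minus MupHe in NC, to 1 in HFD control minus NC in B6, to 2 in NASH minus NC in IgAkMup and to 5 in IgAkMup minus MupHe in NASH. Of all 12337 genes, this fit called 200, 2650, 3608 and 1047 in these comparisons. In that fit Ciita (adjusted p = 0.0665, limma) and Ctss (adjusted p = 0.116) were no longer called in MupHe HCC minus NASH. With array weights the count went from 0 to 1 in NASH minus HFD control and in its Tri N part. It went to 2 in CD8kMup minus IgAkMup tumours, to 4 in HFD control minus NC in B6 and to 5 in IgAkMup minus MupHe in NASH. Of all 12337 genes, array weights called 2386, 1941, 3005, 4111 and 3320 in these comparisons. The cause was not tested. Leaving out single libraries gave 0 to 2 in HFD control minus NC in B6, 0 to 1 in IgAkMup minus MupHe tumours, 0 to 1 in CD8kMup minus MupHe tumours and 0 to 3 in CD8kMup minus IgAkMup tumours. At the highest counts, 2387, 2895, 133 and, for the last, 2133 or 3259 of the 12337 genes were called. Counts over all genes moved more, from 16 to 2386 in NASH minus HFD control (163 as reported) and from 4309 to 10635 in HCC minus NASH (5969). Replicate numbers shared by the NC groups did not pair the libraries: the deviations of 18 same-numbered pairs correlated at -0.21 to 0.23, and 6 of 12 libraries correlated best with their own number. With the replicate block over NC libraries, 0 of 8 genes were called in each NC comparison. Unknown depth and groups of 3 or 4 limit what the liver comparisons could detect.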
